A study of Homo sapiens with 24 samples.

Results

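The comparison was between PC9 and HCC4006, human lung adenocarcinoma lines that each carry an activating EGFR mutation, as control cells (CTRL) that had received only DMSO, the drug solvent, for 24 hours. Its members are 6 mRNA libraries, 3 of HCC4006 and 3 of PC9, of 24 in the series, and the 12642 gene rows, of 25365 in the deposited table, whose level was at least 1 FPKM in at least 3 of those 6 libraries. FPKM is fragments per kilobase of transcript, scaled by mapped fragments. The series also holds the same lines as YAP1 knockout (YAP1 KO) cells and after osimertinib at 100 nM with trametinib at 30 nM (OT), and asks how YAP shapes the response to that combination. The labels give no further detail on the control population. Dishes were plated in triplicate, so the p-values measure the spread between dishes of 1 culture per line, and the lines also differ in donor, genome and history, which cannot be told apart here.

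EGFR signals through the RAS, RAF, MEK and ERK kinases to growth and survival genes, and lung cancers with an activating mutation in it depend on that signal. YAP, encoded by YAP1, is the coactivator that the Hippo kinases keep out of the nucleus and that binds TEAD factors on DNA. Lines that share such a driver can still differ in lineage factors, epithelial state, detoxification enzymes and cell cycle inhibitors, and these groups are described below as they stood before any drug.

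The lines differed in most of the genes they expressed, and the differences ran about equally in both directions. A limma fit on log2(FPKM + 1), with Benjamini-Hochberg adjustment over all rows and a threshold of 0.05, called 10682 of 12642 rows (84.5%), 5049 higher (39.9%) and 5633 lower (44.6%) in HCC4006. A log2 difference below is HCC4006 minus PC9 on that scale. Of the called rows, 1515 (12%) were at least 2-fold higher and 1667 (13.2%) at least 2-fold lower, 3182 (25.2%) in all. At least 8-fold differences numbered 149 higher and 127 lower, and at least 32-fold differences 24 and 30. The libraries of the 2 lines did not overlap in 10846 rows (85.8%). The filter itself feeds these counts: 565 of the rows at least 2-fold higher reached 1 FPKM in 3 libraries only through HCC4006, and 568 of those at least 2-fold lower only through PC9. Among the 11073 rows that passed in both lines, 2049 (18.5%) differed at least 2-fold. The median log2 difference of all rows was -0.05, and the median residual SD between dishes was 0.07 on the log2 scale.

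**Figure D1:**
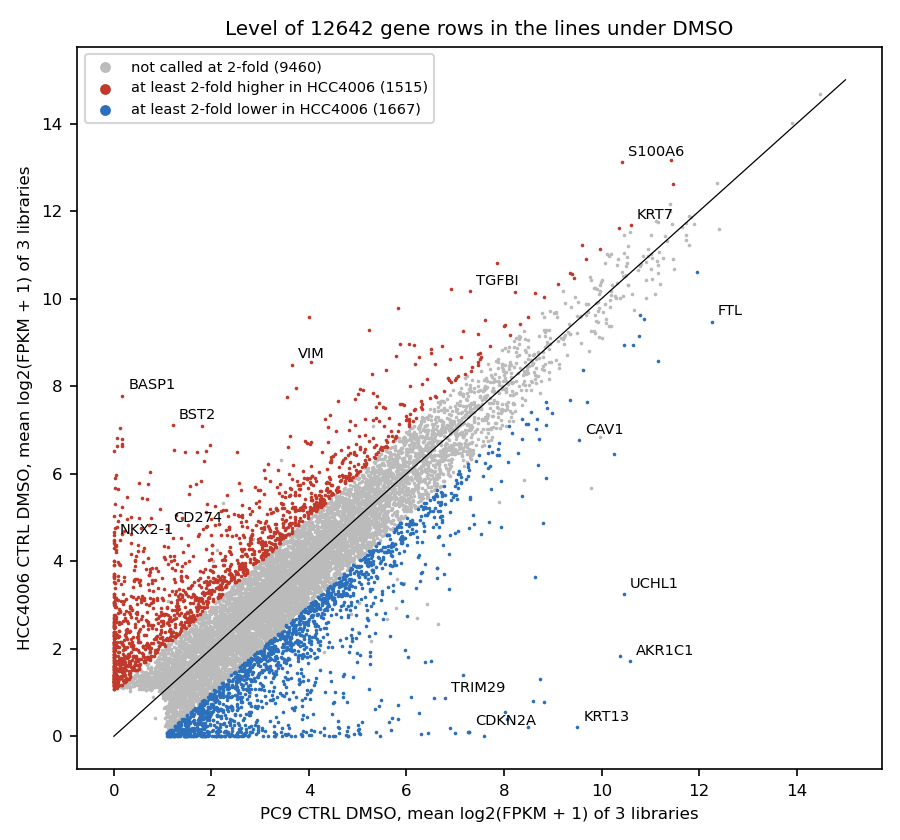
Mean log2(FPKM + 1) over the 3 PC9 libraries (horizontal) against that over the 3 HCC4006 libraries (vertical) for the 12642 rows, with the line of equality. Red points are the 1515 rows called at least 2-fold higher in HCC4006 and blue points the 1667 called at least 2-fold lower; many points of both colours lie along an axis, at or near 0 in one line.

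The FPKM column totals lay between 604392 and 660459, with 7.81% to 11.03% of each total in rows of short RNAs. Absolute depth is unknown, and relative depth, from the step that 1 read makes in low genes, ran from 0.953 to 1.014. Across gene rows, the correlation between libraries was 0.984 to 0.989 within a line and 0.836 to 0.843 between the lines. An exact 0 in this table can be a failed estimate: 11 of 16 genes of MHC class I antigen presentation and the ribosomal protein gene RPS18 are listed at 0 in all 24 libraries. Of the rows called at least 2-fold, 112 are listed at 0 in all 3 PC9 libraries and 49 in all 3 HCC4006 libraries, and for those no fold is given.

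The 12 genes with the largest positive difference included a membrane-associated growth cone protein, basement membrane collagen, a chemokine and a homeobox factor. BASP1, the growth cone protein, stood at 218, 220.0 and 219 FPKM in the HCC4006 libraries and at 0.0384, 0.156 and 0.189 in the PC9 libraries (log2 difference 7.61, SE 0.056, adjusted p = 1.1e-11). COL4A2, a chain of basement membrane collagen IV, was at 131, 131 and 132 against 0.0477, 0.107 and 0.104 (log2 difference 6.93, adjusted p = 6.1e-12). CCL2, the monocyte chemokine, was at 92.9, 95.6 and 83.6 in HCC4006 and listed at 0 in all 3 PC9 libraries (log2 difference 6.52, adjusted p = 2.5e-11). Each of these genes was abundant in every HCC4006 library and at or near 0 in every PC9 library. The same held for BARX1, a homeobox transcription factor, at 56.7, 59.6 and 58.9 against 0, 0.0460 and 0 (log2 difference 5.87, adjusted p = 1.8e-11), and for SERPINA1, the antitrypsin gene, at 48.6, 52.5 and 49.1 against 0, 0 and 0.0381 (log2 difference 5.66, adjusted p = 3.0e-11). BST2, the interferon-induced tetherin, was at 141, 136 and 135 against 1.21, 1.30 and 1.40, which is 105-fold higher (log2 difference 5.91, adjusted p = 1.2e-11). PCSK1N, HCLS1, SLCO2A1, XAGE1E and XAGE1B complete the group with log2 differences from 5.93 to 6.76; the XAGE1 rows are near-identical copies whose reads the authors' counting could have split.

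UBE2M, the E2 enzyme that transfers NEDD8 to cullins and is used by nearly every human cell, is the member of that group whose values a reader would least look for. Its row was at 96.4, 99.5 and 99.4 FPKM in HCC4006 and at 0, 0.0891 and 0.0433 in PC9 (log2 difference 6.57, adjusted p = 1.1e-11). The row was also near 0 in the YAP1 KO cells of PC9 under DMSO, at 0.0375 ± 0.0649 FPKM (SD, n = 3), against 104 ± 3.67 FPKM (SD, n = 3) in those of HCC4006. Whether the PC9 row reflects the transcript or its estimate was not tested.

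The 12 genes with the largest negative difference were led by a keratin and by reductases and conjugating enzymes. KRT13, a keratin of stratified mucosa, stood at 0.205, 0.160 and 0.121 FPKM in HCC4006 and at 706, 721 and 738 in PC9 (log2 difference -9.28, SE 0.04, adjusted p = 1.6e-12). SPP1, the secreted phosphoprotein osteopontin, was at 0.234, 0.0458 and 0.231 against 354, 356 and 364 (log2 difference -8.26, adjusted p = 1.4e-11). UCHL1, a ubiquitin hydrolase of neurons and some tumours, was at 8.27, 8.35 and 8.92 against 1409, 1373 and 1411, 164-fold lower in HCC4006 (log2 difference -7.20, adjusted p = 1.6e-12). The groups stood far apart in all 3 genes, and UCHL1 kept a measurable level in HCC4006 while KRT13 and SPP1 were below 1 FPKM there. S100P, a calcium-binding protein, was at 0.400, 0.588 and 0.394 against 255, 261 and 259 (log2 difference -7.47, adjusted p = 1.1e-11). SPANXB1 and MAGEA6, cancer-testis genes, were at 185, 194 and 197 and at 155, 153 and 155 in PC9; SPANXB1 is listed at 0 in all 3 HCC4006 libraries, and MAGEA6 was at 0.102, 0.0597 and 0.0400.

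Rows above 5 FPKM in every library of one line and below 0.1 in every library of the other numbered 55 for HCC4006 and 39 for PC9. Beside those already given, the highest for PC9 were MAL, a lipid raft protein of apical transport, at 128, 129.8 and 123 against 0.0796, 0 and 0.0939, and SRGN, the granule proteoglycan serglycin, at 76.8, 77.1 and 77.9 against 0.0675, 0.0660 and 0. MSLN, the surface antigen mesothelin, was at 32.2, 33.6 and 29.97 in PC9 and at 0.0319, 0.0312 and 0.0314 in HCC4006 (log2 difference -4.995, adjusted p = 9.3e-11). On the HCC4006 side the fifth was TNC, the matrix glycoprotein tenascin C, at 50.5, 47.9 and 50.1 against 0.0275, 0.0769 and 0.0611 (log2 difference 5.58, adjusted p = 2.5e-11).

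**Figure D2:**
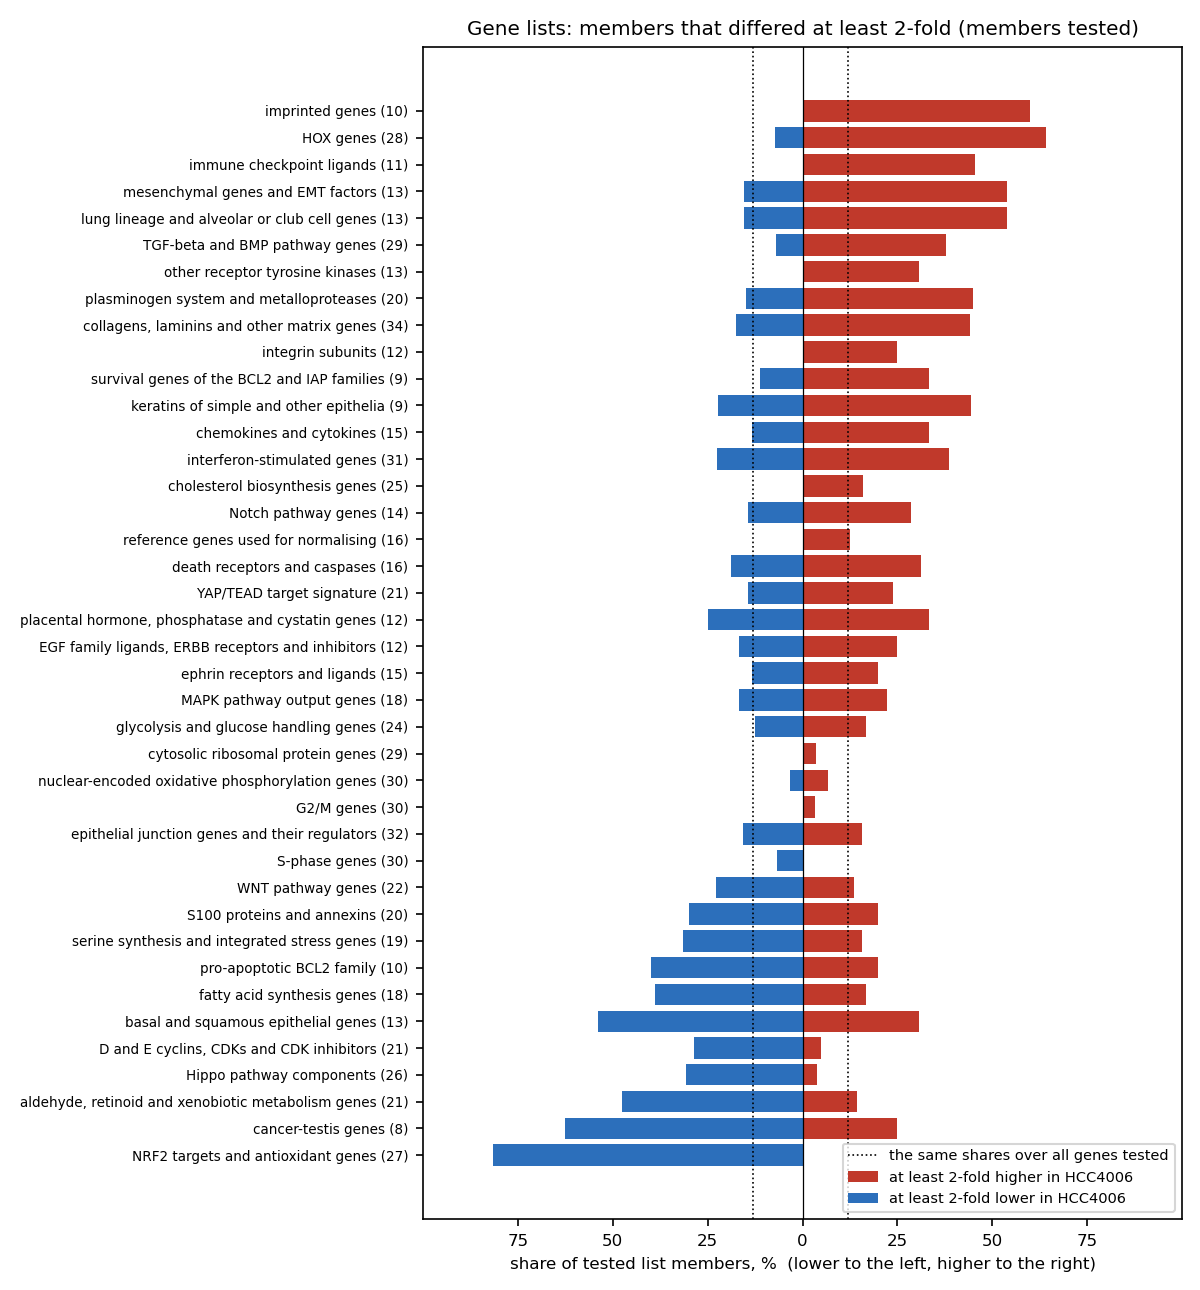
Share of each gene list's tested members that differed at least 2-fold, higher in HCC4006 to the right and lower to the left, for lists with 8 or more tested members (number in brackets); dotted lines mark the 12% and 13.2% over all rows tested. NRF2 target genes reach furthest to the left, with 22 of 27, and HOX genes furthest to the right, with 18 of 28; 18 of those 28 passed the filter only through HCC4006, the line in which they are high.

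The group that stood furthest toward PC9 was that of NRF2 target genes. NRF2 (NFE2L2) is the transcription factor that KEAP1 holds back and that, once stable, switches on antioxidant, glutathione, NADPH and detoxification genes through the antioxidant response element. All 27 list genes had a row that passed, 4 of them only through PC9. At least 2-fold lower in HCC4006 were 22 of 27, against 13.2% of all rows, 4 more were lower by less, and 1, ABCC3, was higher. The median log2 difference of the list was -2.34, against -0.05 over all rows. Cancer-testis genes had a lower median, -2.62 over 8 tested, of which 5 passed only through PC9 and 2 only through HCC4006.

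Promoter sequence is shown for the members that hold the element's core, since these genes moved together. RefSeq promoters (GRCh38.p14) matched 19 of the 27 list genes. The core TGACNNNGC was searched on both strands in the 250 bases before the annotated start. It occurs in 6 of those 19 (31.58%), in 3013 of 27305 promoters in all (11.03%), and in 1134 of 9294 promoters of tested genes (12.20%). Promoters of genes at least 2-fold lower in HCC4006 held it in 127 of 1120 cases (11.34%) and those of genes at least 2-fold higher in 128 of 1114 (11.49%). The windows below run 5′ to 3′ along each gene, with the match in capitals. They lie at chr14:64942838-64942887 on the minus strand (GPX2), chr1:93909435-93909484 minus (GCLM), chr12:104215660-104215709 plus (TXNRD1), chr6:83431159-83431208 minus (ME1), chr1:10398843-10398892 plus (PGD) and chr21:36069845-36069894 plus (CBR1).
GPX2: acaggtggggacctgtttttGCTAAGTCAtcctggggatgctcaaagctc
GCLM: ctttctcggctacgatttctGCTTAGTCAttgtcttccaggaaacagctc
TXNRD1: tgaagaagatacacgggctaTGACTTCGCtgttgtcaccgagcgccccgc
ME1: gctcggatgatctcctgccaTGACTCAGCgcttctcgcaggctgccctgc
PGD: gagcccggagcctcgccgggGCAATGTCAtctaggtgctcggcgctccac
CBR1: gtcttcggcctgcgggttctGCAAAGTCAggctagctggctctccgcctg
A match is a description of these letters and does not show that the factor binds there.

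The aldo-keto reductases, which reduce aldehydes, ketones and steroids, held the largest differences of the list. AKR1C1 stood at 2.74, 1.81 and 2.36 FPKM in HCC4006 and at 1502, 1519 and 1582 in PC9 (log2 difference -8.87, SE 0.092, adjusted p = 4.3e-11). AKR1C3 was at 2.54, 2.08 and 3.13 against 1296, 1310.1 and 1376 (log2 difference -8.54, adjusted p = 6.0e-11), and AKR1B10 at 1.49, 1.45 and 1.48 against 412, 422 and 441 (log2 difference -7.43, adjusted p = 1.6e-12). In PC9 no library of these genes was under 412 FPKM, and in HCC4006 none was over 3.13. AKR1C1, AKR1C2 and AKR1C3 are near-identical in places, so the split of reads between them is uncertain, but their HCC4006 libraries were low in every one. AKR1C2 was at 0.892, 0.630 and 0.720 against 381, 384 and 389.9 (log2 difference -7.79, adjusted p = 1.1e-11).

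Glutathione genes differed in the same direction. GPX2, a glutathione peroxidase and one of the promoters printed above, was at 0.482, 0.202 and 0.271 FPKM in HCC4006 and at 256, 271 and 269.9 in PC9 (log2 difference -7.67, adjusted p = 3.3e-11). SLC7A11, the cystine importer, was at 0.713, 0.534 and 0.582 against 43.1, 42.3 and 41.3 (log2 difference -4.75, adjusted p = 1.0e-10). GCLM and GCLC, the subunits of the rate-limiting enzyme of glutathione synthesis, differed by -3.02 and -2.80; GCLM was at 11.9, 10.1 and 11.8 against 95.8, 100.0 and 98.7. Cystine import and the synthesis and use of glutathione were thus each represented among the genes lower in HCC4006. ABCC2, an exporter of glutathione conjugates, was at 0.0695, 0.0566 and 0.114 against 26.2, 26.96 and 26.3 (log2 difference -4.67, adjusted p = 7.4e-11).

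Thioredoxin, NADPH and iron storage genes differed by less. TXNRD1, thioredoxin reductase, was at 72.9, 69.8 and 73.6 FPKM against 408, 409 and 422 (log2 difference -2.50, adjusted p = 1.4e-10), and NQO1, the quinone reductase often used as a marker of NRF2 activity, at 108, 113 and 108 against 417, 407 and 428 (log2 difference -1.92, adjusted p = 6.1e-10). The ferritin light chain FTL was at 696, 743 and 691 against 4868, 4987 and 4860.3 (log2 difference -2.79, adjusted p = 2.5e-10). The pentose phosphate enzymes TKT and TALDO1, which interconvert sugars, differed by -1.76 and -1.57. No HCC4006 library reached a PC9 library in any of these genes. Smaller differences were seen for PGD (-0.99), CBR1 (-0.73) and HMOX1 (-0.76), all called. ABCC3 was the exception, at 16.4, 15.7 and 15.8 against 14.1, 14.1 and 12.6 (log2 difference 0.22, adjusted p = 0.0046), a call lost when column totals were made equal (adjusted p = 0.052).

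**Figure D3:**
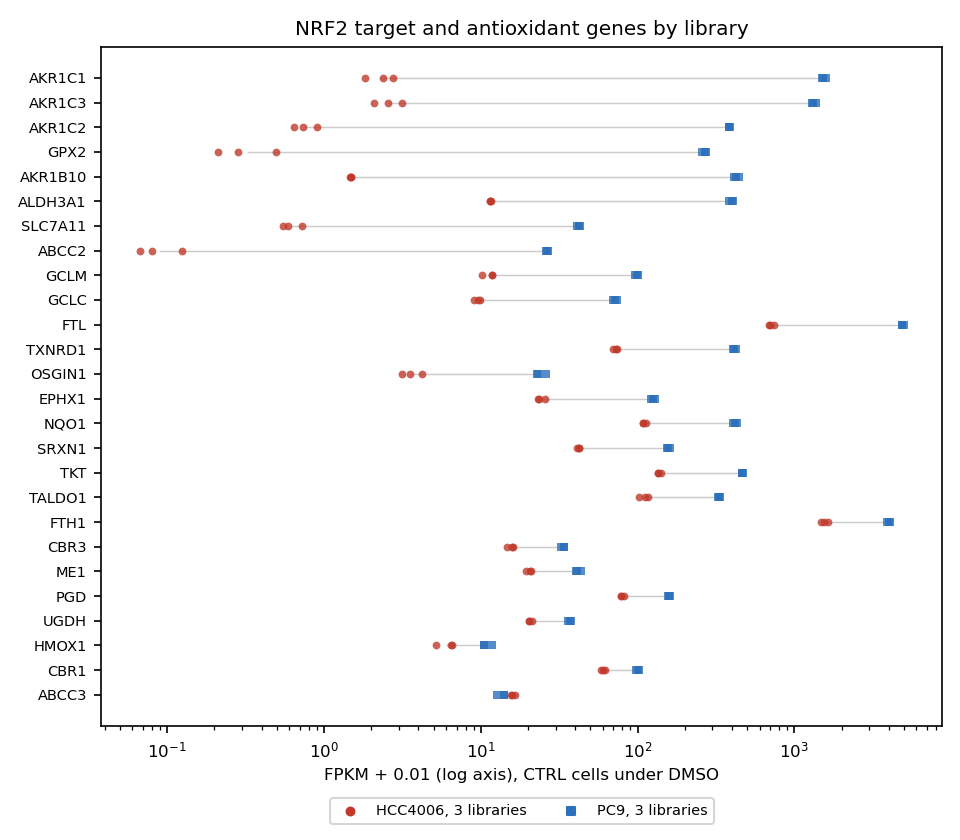
FPKM + 0.01 (log axis) of 26 of the 27 NRF2 target and antioxidant genes in each library, ordered by log2 difference, with HCC4006 as red circles, PC9 as blue squares and a grey line between the means. The HCC4006 libraries lie left of the PC9 libraries in every gene but ABCC3.

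Enzymes of xenobiotic metabolism outside that list were mixed in direction. Of 21 tested, 10 were at least 2-fold lower and 3 higher in HCC4006, beside 13.2% and 12% of all rows (6 of the 21 passed only through PC9 and 3 only through HCC4006). UGT1A6, a glucuronosyltransferase, was at 0.736, 0.729 and 0.693 FPKM against 439, 451 and 468 (log2 difference -8.04, adjusted p = 1.6e-12); the UGT1A genes share exons, so which of them the reads belong to is uncertain. CYP4F11, a fatty acid hydroxylase, was at 0.263, 0.258 and 0.216 against 30.98, 33.8 and 34.3, and GSTM3, a glutathione transferase, at 1.55, 1.54 and 1.60 against 27.9, 27.97 and 30.7. GSTT1, another glutathione transferase and a gene that is deleted in many people, ran the other way, at 26.03, 26.6 and 27.1 against 0, 0.0688 and 0.0669 (log2 difference 4.72, adjusted p = 9.3e-11).

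Several lung lineage genes, NKX2-1 among them, were present in HCC4006 and at or near 0 in PC9. NKX2-1, the transcription factor that specifies lung and thyroid epithelium and marks many lung adenocarcinomas, was at 21.7, 20.4 and 21.9 FPKM in HCC4006 and is listed at 0 in all 3 PC9 libraries (log2 difference 4.48, SE 0.055, adjusted p = 1.0e-10). SFTA3, a neighbour of NKX2-1, was at 6.69, 7.19 and 7.84 and likewise listed at 0 in PC9, and SLC34A2, the phosphate transporter of alveolar type II cells, was at 8.84, 8.08 and 8.77 against 0, 0 and 0.0144 (log2 difference 3.25, adjusted p = 7.6e-10). FOXA2, a factor of foregut endoderm, was at 4.71, 4.47 and 4.65 and listed at 0 in PC9. These genes were thus detected in every HCC4006 library. NKX2-1 and SFTA3 lie in a run of 7 neighbouring tested genes that were all at least 2-fold higher in HCC4006, not all of them on the lineage list. CAV1, the caveolar protein abundant in alveolar type I cells, was lower, at 107, 106 and 109 against 714, 739 and 761 (log2 difference -2.77, adjusted p = 1.0e-10), and GATA6, another endoderm factor, was at 0.765, 0.915 and 0.920 against 4.21, 4.49 and 4.23 (log2 difference -1.51, adjusted p = 6.9e-08). Of 24 lineage genes 13 passed the filter (7 only through HCC4006, 2 only through PC9). Of those 13, 7 were at least 2-fold higher and 2 lower, beside 12% and 13.2% of all rows. The surfactant protein genes SFTPA1, SFTPB and SFTPC did not pass in either line.

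Genes of basal and squamous epithelium differed in both directions, with more of them higher in PC9. TRIM29, a protein of basal cells, stood at 0.885, 0.823 and 0.764 FPKM in HCC4006 and at 109, 109.6 and 109.8 in PC9 (log2 difference -5.92, SE 0.043, adjusted p = 1.1e-11). KRT5 and KRT6A, keratins of basal and of activated keratinocytes, were at 0.123, 0.149 and 0.0641 against 31.9, 32.4 and 28.6 (log2 difference -4.84, adjusted p = 1.8e-10) and at 0.945, 0.986 and 1.08 against 20.003, 20.2 and 17.3 (log2 difference -3.33, adjusted p = 1.9e-09). S100A2, a calcium-binding protein of basal cells, ran the other way, at 616, 684 and 568 against 34.3, 35.8 and 39.4 (log2 difference 4.06, adjusted p = 7.6e-10). So the list did not move as 1 block: of 13 tested, 7 were at least 2-fold lower and 4 higher, beside 13.2% and 12% of all rows. TP63 was among the 4 higher, and 4 of the 13 passed only through each line. Among other keratins KRT8 was lower, at 716, 753 and 736 against 1905, 1874 and 1865 (log2 difference -1.35, adjusted p = 4.3e-09), KRT80 was higher, at 98.2, 94.9 and 95.9 against 26.4, 26.7 and 27.5 (log2 difference 1.80, adjusted p = 7.6e-10), and KRT75, a hair follicle keratin, was at 11.6, 12.9 and 10.7 and listed at 0 in PC9.

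Secretory cell genes split. SPDEF, a transcription factor of goblet cells, was at 53.1, 54.9 and 52.6 FPKM against 0.627, 0.601 and 0.653 (log2 difference 5.07, adjusted p = 2.5e-11), and AGR2, a protein disulfide isomerase that mucin-producing cells need, at 302, 308 and 322 against 36.3, 37.4 and 40.6 (log2 difference 2.99, adjusted p = 3.8e-10). Both stood higher in every HCC4006 library. SLPI, a secreted protease inhibitor, and LCN2, the iron-scavenging lipocalin, were lower, at 0.624, 0.916 and 1.07 against 65.9, 68.2 and 67.2 (log2 difference -5.19, adjusted p = 4.7e-10) and at 29.7, 27.3 and 27.7 against 435, 440.2 and 456 (log2 difference -3.93, adjusted p = 3.8e-11).

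HOX genes, which record position along the body axis, were detected more widely in HCC4006. Of 37 genes 28 passed the filter, 18 of them only through HCC4006 and 3 only through PC9. Among the 28, 18 were at least 2-fold higher and 2 lower, beside 12% and 13.2% of all rows. HOXA10 was at 13.5, 14.1 and 14.3 FPKM in HCC4006 and is listed at 0 in PC9 (log2 difference 3.90, adjusted p = 1.9e-10). HOXC10 was at 15.1, 15.4 and 15.4 against 0.330, 0.234 and 0.488 (log2 difference 3.60, adjusted p = 1.7e-09), HOXB2 at 10.6, 10.7 and 11.4 against 0.124, 0.0421 and 0 (log2 difference 3.50, adjusted p = 1.0e-09) and HOXD11 at 10.9, 10.8 and 9.60 against 0, 0.0467 and 0 (log2 difference 3.49, adjusted p = 9.8e-10). Members of the A, B, C and D clusters were therefore all among the genes detected in HCC4006 and at or near 0 in PC9. HOXA3 was an exception, at 0.617, 0.642 and 0.861 against 5.65, 5.83 and 5.89 (log2 difference -1.99, adjusted p = 2.9e-08).

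**Figure D4:**
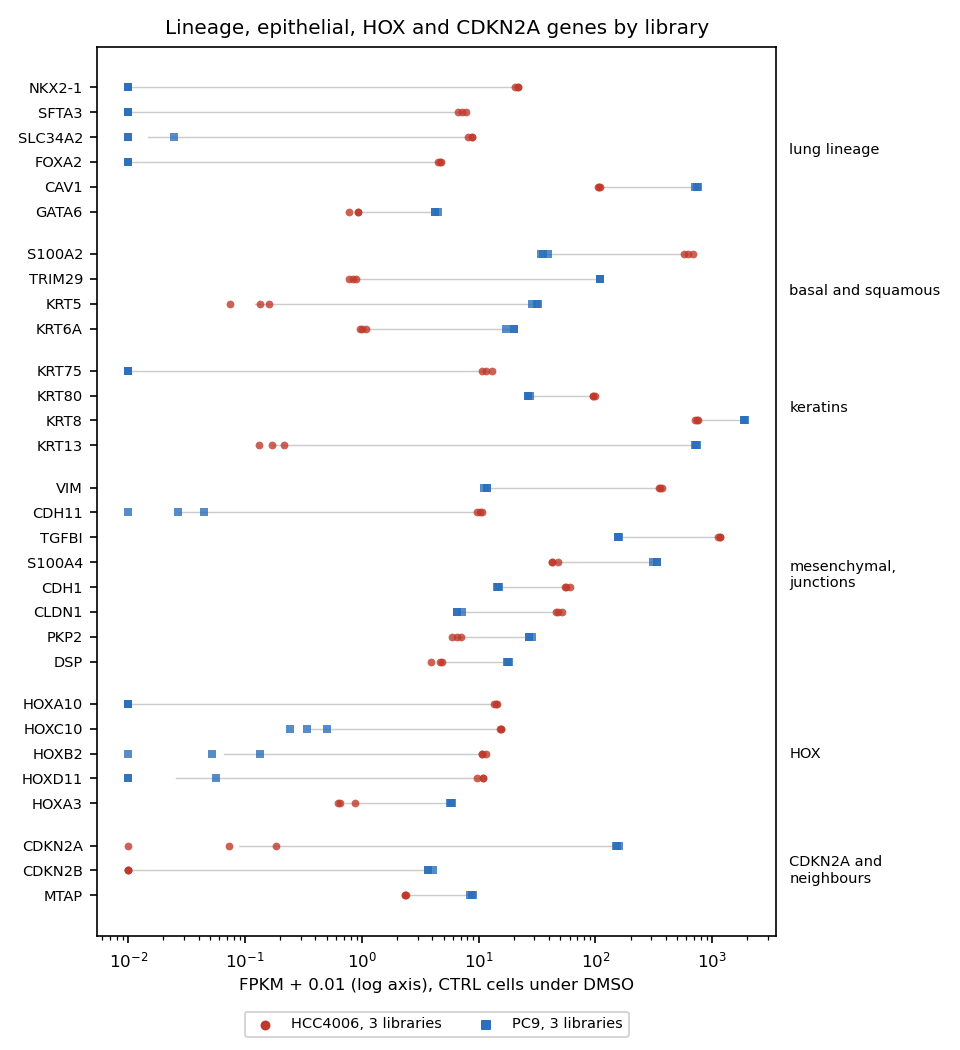
FPKM + 0.01 (log axis) of lineage, keratin, mesenchymal, junction, HOX and CDKN2A-region genes in each library, with HCC4006 as red circles and PC9 as blue squares; a row listed at 0 is drawn at 0.01. NKX2-1 and HOXA10 lie at 0.01 in PC9 and CDKN2B in HCC4006, and CDH1 and VIM both lie to the right in HCC4006.

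HCC4006 carried more mRNA of both mesenchymal and epithelial cadherins and of vimentin. VIM, the mesenchymal intermediate filament, was at 355, 373 and 350.1 FPKM against 10.99, 11.7 and 11.8, 31.2-fold higher (log2 difference 4.85, SE 0.04, adjusted p = 1.6e-11). CDH1, the epithelial cadherin, was also higher, at 56.3, 55.2 and 60.7 against 14.4, 14.6 and 14.8 (log2 difference 1.90, adjusted p = 2.7e-09), and CLDN1, a tight junction claudin, was at 48.1, 45.8 and 51.3 against 6.52, 6.53 and 7.20 (log2 difference 2.67, adjusted p = 1.7e-09). The high vimentin thus did not come with low E-cadherin mRNA. CDH11, a cadherin of mesenchyme, was at 10.3, 9.69 and 10.7 against 0, 0.0341 and 0.0166 (log2 difference 3.47, adjusted p = 5.9e-10), and SNAI2, a repressor of epithelial genes, at 13.4, 14.8 and 14.6 against 3.95, 4.84 and 4.08 (log2 difference 1.53, adjusted p = 1.9e-07). ZEB1 did not pass the filter, at 0.261, 0.191 and 0.225 against 0.101, 0.0736 and 0.0511. The desmosome genes PKP2 and DSP were lower, at 6.47, 5.88 and 6.99 against 26.7, 26.999 and 28.8 (log2 difference -1.94, adjusted p = 1.8e-08) and at 4.63, 3.86 and 4.86 against 17.5, 17.9 and 18.1 (log2 difference -1.79, adjusted p = 6.4e-08), as was S100A4, a marker of motile and fibroblastic cells, at 42.4, 47.8 and 42.7 against 313, 337 and 336 (log2 difference -2.87, adjusted p = 8.6e-10). EPCAM differed little, at 322, 325 and 335 against 361, 345 and 359.7, with a log2 difference of -0.12 that was no longer called under median-of-ratios scaling (-0.04, adjusted p = 0.3) or with all 24 libraries in the fit (adjusted p = 0.12).

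Matrix and protease genes were more often higher in HCC4006. Of 34 tested collagens, laminins and other matrix genes 15 were at least 2-fold higher and 6 lower, beside 12% and 13.2% of all rows. Among them 9 passed only through HCC4006 and 2 only through PC9. COL4A1, which shares a promoter region with COL4A2 and pairs with it in collagen IV, was at 87.7, 89.2 and 90.2 FPKM against 1.56, 1.83 and 1.91 (log2 difference 5.03, adjusted p = 6.1e-11), and MFAP5, a microfibril protein, was at 9.07, 8.83 and 8.77 in PC9 and listed at 0 in HCC4006. TGFBI, an integrin ligand in the matrix, was at 1128, 1170.0 and 1159 against 158, 156 and 156 (log2 difference 2.87, adjusted p = 4.0e-11). Of 20 tested genes of the plasminogen system and metalloproteases 9 were at least 2-fold higher and 3 lower, beside the same shares of all rows. Here 5 passed only through HCC4006 and 2 only through PC9. MMP2, a gelatinase, was at 30.9, 31.2 and 30.1 against 0.346, 0.611 and 0.324 (log2 difference 4.48, adjusted p = 7.4e-10). TIMP3, an inhibitor of such proteases, was at 0.230, 0.191 and 0.147 against 31.2, 31.2 and 31.1 (log2 difference -4.76, adjusted p = 6.3e-11), and the metalloproteases MMP24 and ADAMTS12 differed in opposite directions, by 3.33 and -3.04. PLAU and PLAUR, the urokinase protease and its receptor, were both higher in HCC4006, by 2.79 and 2.74. Among 12 tested integrin subunits 3 were at least 2-fold higher, beside 12% of all rows. They were led by ITGA2, a collagen-binding subunit, at 48.1, 41.05 and 47.2 against 8.02, 7.72 and 6.80 (log2 difference 2.45, adjusted p = 1.4e-08).

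EGFR, on which osimertinib acts, ERBB2, ERBB3, MET and AXL each differed by less than 2-fold between the untreated lines. EGFR stood at 14.03, 13.02 and 13.7 FPKM in HCC4006 and at 17.1, 18.5 and 16.9 in PC9, with no overlap but a log2 difference of only -0.34 (adjusted p = 2.6e-04). ERBB3, its kinase-poor partner, differed by -0.54 and MET, the receptor of hepatocyte growth factor, by -0.39. AXL, a receptor linked to drug tolerance, was at 40.6, 39.2 and 41.1 against 41.1, 38.3 and 38.9, groups that overlapped (log2 difference 0.03, adjusted p = 0.47); it was called under median-of-ratios scaling (0.10, adjusted p = 0.028). ERBB2 differed by 0.11 (adjusted p = 0.025), a call that was lost in 7 of the 13 alternatives tried, with adjusted p from 0.0021 to 0.38 over all of them. Each of these receptors was expressed in both lines.

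Other receptors and the ligands differed more. NRG1, the ligand of ERBB3, was at 7.96, 8.51 and 7.50 FPKM against 0, 0 and 0.102 (log2 difference 3.12, adjusted p = 2.5e-09), whereas NRG4 was at 2.61, 2.91 and 2.86 in PC9 and listed at 0 in HCC4006, and EGF was at 0.139, 0.215 and 0.216 against 2.36, 2.95 and 2.29 (log2 difference -1.57, adjusted p = 3.1e-07). ERRFI1, an intracellular inhibitor of EGFR, was at 52.7, 51.3 and 52.4 against 13.4, 12.7 and 13.1 (log2 difference 1.92, adjusted p = 1.0e-09). The ligand and inhibitor genes thus differed in both directions. MERTK was at 3.94, 4.79 and 4.59 against 0.254, 0.189 and 0.183 and FGFR1 at 3.86, 3.58 and 3.48 against 0.327, 0.235 and 0.288; KIT and FGFR2 were at 3.97, 3.57 and 3.57 and at 2.73, 2.22 and 2.93 in HCC4006 and are listed at 0 in PC9. EPHB2, an ephrin receptor, was at 36.4, 35.1 and 33.5 against 9.46, 9.28 and 8.59, and the ligand EFNB2 at 4.17, 3.66 and 4.11 against 11.02, 11.5 and 9.94.

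Genes that ERK signalling switches on differed in both directions: of 18 tested, 4 were at least 2-fold higher and 3 lower, beside 12% and 13.2% of all rows (1 passed only through HCC4006). At any size 11 were higher and 5 lower, beside 39.9% and 44.6% of all rows. The median log2 difference was 0.48, against -0.05 over all rows. DUSP6, the phosphatase that turns ERK off and is itself ERK-induced, was at 52.7, 55.2 and 55.1 FPKM against 4.68, 4.74 and 5.35, 11.04-fold higher (log2 difference 3.23, adjusted p = 4.8e-10). ETV4, an ETS factor of the same output, was lower, at 9.86, 10.7 and 10.6 against 36.7, 37.5 and 33.5 (log2 difference -1.69, adjusted p = 1.8e-08), and SPRY4, a feedback inhibitor, differed by 0.42. MYEOV and SPHK1 differed by -3.20 and 1.51. CCND1, the D cyclin that EGFR signalling maintains, was at 116, 111 and 115 against 78.9, 81.6 and 74.6 (log2 difference 0.54, adjusted p = 2.7e-06).

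Hippo pathway mRNAs differed in both directions. Of 26 tested components 14 were lower and 8 higher in HCC4006, beside 44.6% and 39.9% of all rows, and 8 were at least 2-fold lower and 1 higher, beside 13.2% and 12% (2 passed only through PC9); the median log2 difference was -0.43, against -0.05 over all rows. YAP1 was at 18.5, 16.5 and 19.7 FPKM against 43.3, 42.5 and 42.9, 2.35-fold lower (log2 difference -1.19, SE 0.06, adjusted p = 2.3e-07), while its paralogue WWTR1, which encodes TAZ, was higher, at 29.6, 30.4 and 33.7 against 18.8, 18.4 and 18.97 (log2 difference 0.71, adjusted p = 2.4e-06). VGLL1, a TEAD cofactor, was at 0, 0.0589 and 0.118 against 82.5, 86.98 and 89.3 (log2 difference -6.37, adjusted p = 2.6e-11), and TEAD3 at 2.38, 2.54 and 3.02 against 13.2, 12.4 and 12.9 (log2 difference -1.93, adjusted p = 4.5e-08). AMOT and AMOTL1, angiomotins that hold YAP at junctions, were at 0.0289, 0.0471 and 0.0189 against 8.63, 9.32 and 9.24 (log2 difference -3.29, adjusted p = 6.4e-10) and at 2.47, 2.34 and 2.80 against 14.7, 14.6 and 14.3 (log2 difference -2.14, adjusted p = 9.4e-09). So YAP1 and several of its partners were lower in HCC4006 and WWTR1 was not.

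Genes that YAP and TEAD switch on went in both directions, with 5 of 21 tested at least 2-fold higher and 3 lower, beside 12% and 13.2% of all rows (1 passed only through HCC4006). CTGF, a matricellular protein and a standard readout of YAP, was at 24.3, 23.5 and 24.7 FPKM against 8.47, 9.31 and 8.86 (log2 difference 1.35, adjusted p = 2.9e-08), CYR61, its relative, at 113, 114 and 109 against 56.3, 54.7 and 58.4 (log2 difference 0.98, adjusted p = 4.0e-08), and ANKRD1, a nuclear ankyrin repeat protein, at 13.9, 13.6 and 13.8 against 4.74, 5.05 and 5.49 (log2 difference 1.28, adjusted p = 1.1e-07). These 3 targets were higher in the line with less YAP1 mRNA. In YAP1 KO cells under DMSO the same line differences were 0.34, -0.10 and -0.54, and the change against CTRL cells was -1.01, -1.08 and -1.82 (limma, 12 libraries, adjusted p = 2.7e-06, 2.8e-08 and 3.4e-08). From CTRL to YAP1 KO cells the HCC4006 means fell, from 24.2 to 15.2 FPKM (CTGF), 112 to 68.9 (CYR61) and 13.8 to 4.74 (ANKRD1). The PC9 means rose, from 8.88 to 11.9, 56.5 to 73.9 and 5.09 to 7.36 in the same order. Over the 21 tested targets the line difference moved down in 10 and up in 3, beside 16.4% and 19.1% of all rows, and 8 were not called. CCDC80 was lower in HCC4006, at 3.51, 3.88 and 3.79 against 27.6, 28.3 and 29.5, with a change in YAP1 KO cells of -0.08 that was not called (limma, adjusted p = 0.51), and NT5E was higher, at 104, 102 and 107 against 20.1, 19.95 and 19.6.

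Among apoptosis genes the BH3-only members differed in both directions. BMF, a BH3-only protein that antagonises BCL2 proteins, was at 8.89, 8.96 and 9.52 FPKM against 1.82, 1.68 and 1.51, 5.46-fold higher (log2 difference 1.92, SE 0.064, adjusted p = 2.2e-08). PMAIP1, which encodes NOXA, was at 22.8, 22.1 and 25.7 against 5.95, 6.25 and 6.10 (log2 difference 1.79, adjusted p = 2.5e-08). BCL2L11, which encodes BIM, was lower, at 1.82, 2.15 and 1.88 against 4.005, 4.17 and 3.43 (log2 difference -0.72, adjusted p = 3.2e-05), as were the effector BAX, at 48.8, 59.9 and 57.2 against 136, 146 and 133 (log2 difference -1.31, adjusted p = 4.7e-07), and BIK, at 2.03, 3.58 and 2.08 against 9.84, 10.2 and 7.03 (log2 difference -1.50, adjusted p = 6.6e-05). Of 10 tested pro-apoptotic family members 2 were at least 2-fold higher and 4 lower, beside 12% and 13.2% of all rows. Of 9 tested survival genes 5 were higher and 3 lower, beside 39.9% and 44.6% of all rows, and 3 and 1 at least 2-fold, beside 12% and 13.2% (1 passed only through HCC4006). MCL1 was at 94.3, 89.6 and 94.5 against 42.9, 44.6 and 44.8 (log2 difference 1.06, adjusted p = 2.3e-08), XIAP, a caspase inhibitor, at 14.6, 13.01 and 15.96 against 6.25, 6.30 and 6.29 (log2 difference 1.09, adjusted p = 1.1e-06), and BCL2L1 differed by 0.53, whereas BIRC3 was at 0.761, 0.687 and 1.08 against 3.23, 3.27 and 3.09. TNFSF10, the death ligand TRAIL, was at 29.6, 26.5 and 31.3 against 5.03, 5.74 and 5.78 (log2 difference 2.21, adjusted p = 2.1e-08) and FAS, a death receptor, at 10.3, 11.5 and 13.2 against 3.73, 3.81 and 3.38 (log2 difference 1.45, adjusted p = 6.5e-07). CASP1, the caspase that matures interleukin 1, was at 0.163, 0.259 and 0.161 against 4.78, 5.23 and 4.68 (log2 difference -2.30, adjusted p = 9.2e-09).

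Interferon-stimulated genes split, 12 of 31 tested at least 2-fold higher and 7 lower, beside 12% and 13.2% of all rows (1 passed only through HCC4006 and 3 only through PC9). IFI27 was at 35.9, 59.01 and 36.2 FPKM against 0.887, 0.286 and 0.387 (log2 difference 4.86, adjusted p = 9.0e-08), with replicate 2 of HCC4006 above the other libraries. ISG15, a ubiquitin-like modifier, was at 238, 249 and 240.5 against 30.97, 31.8 and 32.7 (log2 difference 2.89, adjusted p = 9.3e-11), and IFIT2 at 11.7, 11.6 and 11.02 against 1.74, 1.57 and 1.44. XAF1 and GBP1, induced by interferon as well, ran the other way, by -1.74 and -1.74. IFI27 lies in the stretch from CEP128 to MEG3 described below. IFIT2 and FAS lie in a run of 6 neighbouring tested genes, all at least 2-fold higher in HCC4006 and not all on the interferon list. IL11, a cytokine of the interleukin 6 family, was at 46.1, 48.8 and 41.7 against 2.48, 1.73 and 1.58 (log2 difference 4.001, adjusted p = 8.2e-09), CSF2 at 7.56, 10.1 and 8.27 against 0.200, 0.102 and 0.0987 and CXCL8, the neutrophil chemokine, at 5.43, 4.44 and 5.38 against 0.0386, 0 and 0.190. CD274, which encodes the checkpoint ligand PD-L1, was at 25.2, 26.3 and 25.9 against 1.25, 0.978 and 1.19, 22.6-fold higher (log2 difference 3.65, adjusted p = 5.5e-10), and CD70 was at 4.55, 3.78 and 4.31 and listed at 0 in PC9. Of 11 tested checkpoint ligands 5 were at least 2-fold higher, beside 12% of all rows (1 passed only through HCC4006).

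The cell cycle inhibitors at the CDKN2A locus stood at or near 0 in HCC4006. CDKN2A, which encodes p16 and ARF, was at 0.174, 0.0629 and 0 FPKM in HCC4006 and at 153, 151 and 160.0 in PC9 (log2 difference -7.18, SE 0.064, adjusted p = 2.4e-11). Its neighbour CDKN2B was at 3.70, 3.66 and 4.06 in PC9 and is listed at 0 in all 3 HCC4006 libraries, and MTAP, on the other side, was at 2.31, 2.37 and 2.32 against 8.46, 8.73 and 8.87 (log2 difference -1.54, adjusted p = 2.1e-08). All 3 neighbours were thus lower in HCC4006, and MTAP remained above 1 FPKM. CDKN1A, which encodes p21, was higher, at 44.96, 50.1 and 50.2 against 6.98, 6.82 and 7.04 (log2 difference 2.64, adjusted p = 1.1e-09), as was GDF15, a secreted stress factor, at 54.02, 56.1 and 57.97 against 2.33, 1.83 and 3.33 (log2 difference 4.05, adjusted p = 2.1e-08). CCND3 was at 13.4, 14.8 and 13.9 against 50.98, 49.4 and 48.5 (log2 difference -1.75, adjusted p = 4.9e-09).

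Few proliferation genes differed at least 2-fold. Of 30 S-phase genes 2 differed at least 2-fold, MCM3, a helicase subunit, at 44.97, 46.6 and 45.03 FPKM against 107, 105 and 104 and TYMS, thymidylate synthase, at 67.9, 68.8 and 64.2 against 159, 158 and 149, both lower. Of 30 G2/M genes 1 did, AURKA, a mitotic kinase, at 156, 159.9 and 159 against 65.3, 60.7 and 61.3. Those shares lie below the 25.2% of all rows. At any size 11 S-phase genes were higher and 16 lower, and 9 G2/M genes were higher and 15 lower. Over all rows 39.9% were higher and 44.6% lower. MKI67 was at 16.7, 14.2 and 17.4 against 14.97, 14.4 and 13.9, groups that overlapped (log2 difference 0.14, adjusted p = 0.099). It was called under median-of-ratios scaling (0.21, adjusted p = 0.017) and without replicate 2 of HCC4006 (0.23, adjusted p = 0.0036).

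Metabolic genes differed in both directions. SLC16A1, the lactate transporter MCT1, was at 0.934, 1.20 and 1.18 FPKM against 36.6, 35.7 and 37.1 (log2 difference -4.16, adjusted p = 3.0e-10), and SLC7A5 and SLC3A2, the chains of the LAT1 amino acid transporter, at 12.5, 11.8 and 12.1 against 106, 112 and 106 (log2 difference -3.05, adjusted p = 1.1e-10) and at 74.02, 78.98 and 74.6 against 280.4, 269.9 and 264 (log2 difference -1.83, adjusted p = 1.6e-09). PHGDH, the first enzyme of serine synthesis, was at 19.5, 19.8 and 19.6 against 105, 106 and 109 (log2 difference -2.38, adjusted p = 1.6e-10). All 4 were lower in every HCC4006 library. Cholesterol synthesis and uptake genes were higher in 21 of 25, beside 39.9% of all rows, and at least 2-fold higher in 4, a share near the 12% of all rows, led by STARD4, a sterol carrier, at 6.99, 5.68 and 7.31 against 0.253, 0.285 and 0.277 (log2 difference 2.58, adjusted p = 2.2e-08). Of those 25 genes, 1 passed only through HCC4006. PFKFB3, a regulator of glycolysis, was at 36.7, 35.3 and 37.1 against 8.75, 8.95 and 9.17, and SLC2A3, a glucose transporter, at 0.0407, 0.0159 and 0.0160 against 2.83, 2.82 and 2.96. Of the acyl-CoA synthetases ACSL1, ACSL3 and ACSL5 were lower, by -2.03, -1.46 and -1.52. Among 30 tested oxidative phosphorylation genes 3 differed at least 2-fold, beside 25.2% of all rows. NDUFV2 was at 87.03, 85.9 and 82.2 against 234, 235 and 239, and NDUFB8 and COX7B were higher by 1.20 and 1.03.

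Genes of the TGF-beta, WNT and Notch pathways differed in both directions. GREM1 and FST, which bind BMPs and activins, were at 16.7, 15.9 and 16.8 FPKM against 0.379, 0.331 and 0.414 (log2 difference 3.67, adjusted p = 3.4e-10) and at 10.7, 11.1 and 9.62 against 0.462, 0.433 and 0.421 (log2 difference 2.99, adjusted p = 2.2e-09), while INHBA, an activin subunit, was at 0.154, 0.664 and 0.455 against 14.7, 12.9 and 13.9 (log2 difference -3.39, adjusted p = 3.9e-08). DKK3 was at 53.5, 54.2 and 52.6 against 2.17, 2.37 and 2.09 and SFRP1, a WNT antagonist, at 0.627, 0.418 and 0.378 against 10.7, 9.89 and 9.70. LGR5, a receptor that amplifies WNT signals, was at 2.96, 3.46 and 3.28 and listed at 0 in PC9, and the ligand WNT5A was at 1.46, 1.07 and 1.39 against 9.88, 10.5 and 10.4. In the Notch pathway the ligand JAG1 and the glycosyltransferase LFNG were higher, by 1.44 and 1.86, and NOTCH3 and the target NRARP lower, by -1.81 and -2.39. The counts were 11 of 29 tested TGF-beta and BMP genes at least 2-fold higher and 2 lower, 3 of 22 WNT genes higher and 5 lower, and 4 of 14 Notch genes higher and 2 lower, beside 12% and 13.2% of all rows, so the WNT share higher is near that of all rows. In these lists 4, 2 and 1 genes passed only through HCC4006, and 1, 1 and 2 only through PC9.

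Some small families also split between the lines. S100A6 was at 8736, 9321 and 8605 FPKM against 1385, 1385 and 1339 (log2 difference 2.70, adjusted p = 4.8e-10) and ANXA8, an annexin, at 2.202, 2.36 and 2.10 against 81.9, 81.3 and 83.03 (log2 difference -4.69, adjusted p = 2.7e-11). Of the metallothioneins, small metal-binding proteins, MT1E was at 381, 395 and 345 against 13.4, 15.9 and 16.98 and MT1A at 4.97, 4.40 and 3.16 against 37.9, 42.8 and 39.2; these genes are close copies of each other and the split of reads is uncertain. PHLDA2 and PEG10, imprinted genes of the placenta, were at 117, 116 and 114 against 12.6, 12.2 and 9.04 and at 14.6, 13.7 and 16.9 against 2.14, 1.75 and 1.83, both higher in HCC4006. ALPP, the placental alkaline phosphatase, was at 0.0798, 0.0893 and 0.146 against 15.3, 15.1 and 16.02 and PSG5, a pregnancy glycoprotein, at 6.07, 6.78 and 5.94 against 0.143, 0.313 and 0.127. MAGEA3 and MAGEA12 were at 154, 151 and 155 and at 24.3, 22.3 and 24.4 in PC9 and at 0.167 or less in HCC4006; MAGEA3 and MAGEA6 are near-identical copies.

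Some genes next to each other on a chromosome differed the same way. Runs of at least 4 neighbouring tested genes, all at least 2-fold higher in HCC4006, numbered 40 and held 262 genes, and runs at least 2-fold lower numbered 41 and held 201 genes, of 12309 tested genes placed by RefSeq order. The longest runs higher in HCC4006 held 18 genes each and lay in 1 stretch, CEP128 to TTC7B and CLMN to MEG3. In the stretch from CEP128 to MEG3, chosen after its values were seen, 58 of 62 tested genes were at least 2-fold higher and 61 had a log2 difference above 0. Their median log2 difference was 2.17, and 2.27 in YAP1 KO cells under DMSO. SERPINA1 was the highest of them, MEG3, a maternally expressed noncoding RNA, was at 25.3, 23.1 and 20.96 FPKM and listed at 0 in PC9, and VRK1, YY1 and PSMC1, a kinase, a zinc finger factor and a proteasome subunit, lay in the same stretch. The 15 tested before CEP128 all had log2 differences below 0, and of the 15 after MEG3 2 were at least 2-fold higher and 4 lower. The next run, from C11orf91 to TRIM44, held 14 genes with a median of 2.64 and included CD44 and CD59. Of the 15 tested before it 7 were at least 2-fold higher and 3 lower, and of the 15 after it 5 and 1. Runs lower in HCC4006 were shorter, at most 11 genes, and included the MAGEA genes. Differences in gene copy number and in chromatin were not tested.

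**Figure D5:**
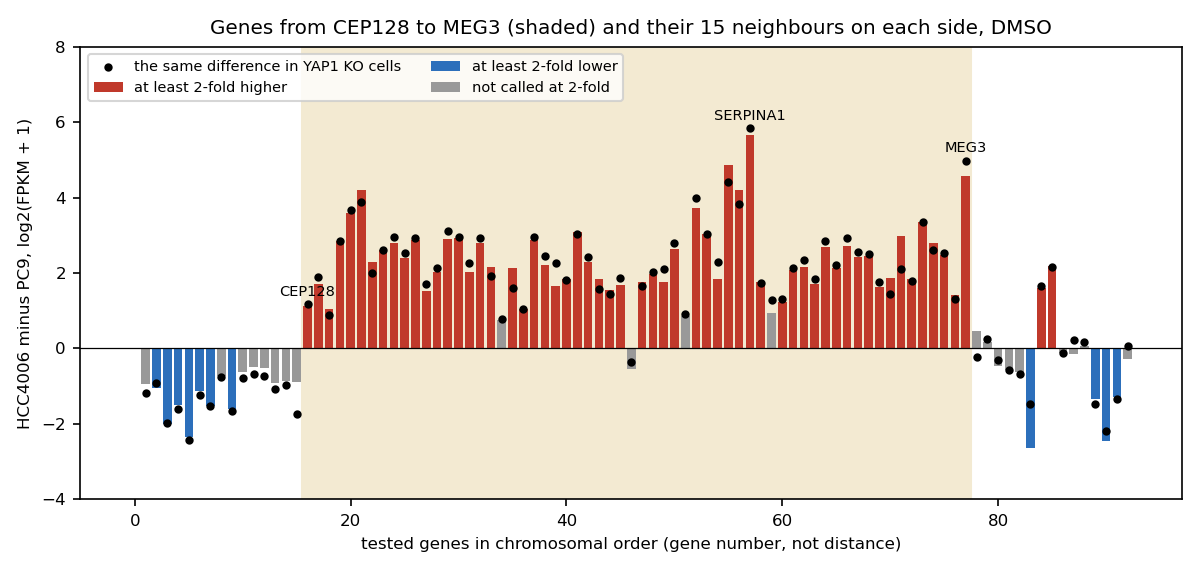
Log2 difference (HCC4006 minus PC9, log2(FPKM + 1)) of tested genes in chromosomal order from CEP128 to MEG3 (shaded) and of 15 tested neighbours on each side; bars are CTRL cells under DMSO and black points YAP1 KO cells under DMSO. In the shaded stretch 58 of 62 bars are red, at least 2-fold higher, and the bars to the left of it lie below 0.

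Most markers of other cell types were under 1 FPKM in all 6 libraries. The summed FPKM of 10 fibroblast markers was 7.96 to 8.28 in HCC4006 and 2.46 to 2.81 in PC9, with 6 of 10 under 1 in all 6 libraries. Endothelial markers summed to 9.57 to 10.03 against 53.9 to 57.2, mostly from EGFL7, at 8.31, 8.999 and 8.29 against 45.01, 45.1 and 42.5, and ESAM, with 8 of 10 under 1, and 12 leukocyte markers to 23.0 to 25.9 against 35.6 to 37.7, with 9 under 1. Their part in the differences was not tested.

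Most of the difference between the lines was seen again in libraries outside the 6 compared, which came from the same lines. Of the 1515 genes at least 2-fold higher in HCC4006, 1177 (77.7%) were at least 2-fold higher in the YAP1 KO cells under DMSO, where 11.01% of all rows were, and of the 1667 lower genes 1316 (78.9%) were at least 2-fold lower, where 12.4% were. Called in the opposite direction there were 8 and 1. The NRF2 targets were among those that stayed, with AKR1C1 at -8.32, GPX2 at -7.91 and SLC7A11 at -4.97 in YAP1 KO cells. VIM and KRT5 differed by less in YAP1 KO cells, at 2.89 and -2.51, and the test of that change gave -1.96 and 2.34 (limma, adjusted p = 7.5e-10 and 3.0e-09). After OT the shares found again were 75.2% and 64.8% in CTRL cells, where 14.4% and 13.2% of all rows were called, with 23 and 39 genes called in the opposite direction. In YAP1 KO cells after OT they were 69.6% and 59.4%, where 14.3% and 12.3% of all rows were called, with 40 and 75 opposite. Replicate 3 of PC9 CTRL after OT stood apart in genes that are high in HCC4006, with BASP1 at 0.0717, 0.633 and 3.27 FPKM and COL4A2 at 0.267, 0.3505 and 2.799 in the 3 libraries. Without it, an alternative chosen after seeing the data, the shares in CTRL cells were 75.6% and 65.1%. Replicate 1 of HCC4006 YAP1 KO after OT had KRT13 at 4.07 FPKM, against 0.193 and 1.22 in the other libraries, and without it, likewise chosen afterwards, the shares were 69.4% and 59.4%. DUSP6, at 3.23 under DMSO, stood at 0.30 in CTRL cells after OT, which was not called (limma, adjusted p = 0.18). Its means there were 0.380 FPKM in HCC4006 and 0.0909 in PC9, levels at which log2(FPKM + 1) understates a difference. NKX2-1, at 4.48 under DMSO, stood at 5.39 in CTRL cells after OT.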

How the data were processed

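The authors deposited FPKM for every library in a single table, with genes given by symbol; per the labels' protocols, TRIzol RNA went into stranded mRNA libraries. In the submitters' processing notes the tools STAR (2.5.1b), Cufflinks (2.2.1) and DESeq2 (1.10.1) appear with no role, next to the builds hg19 and GRCh37. The gene annotation behind the table is not stated there. Because FPKM is a normalized unit, count models were left out. The test was limma (3.58.1, R 4.3.3) on log2(FPKM + 1) of the rows that passed the filter, with group means and a trended empirical Bayes variance. A log2 difference on this scale understates the change of low genes. The comparison of 3 against 3 libraries cannot give an exact permutation p under 0.1, so only the fit across all genes was used. Column headers name the DMSO groups NOTX. They number the YAP1 KO cells differently in PC9 and in HCC4006, and the labels do not explain those numbers. The p-values of tests that use YAP1 KO cells likewise measure the spread between dishes.

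Members, gene lists and tests were chosen with earlier results of these data known. Named genes were the 12 highest and 12 lowest called at least 2-fold, up to 4 members per list, a fixed set of 27, the members of the longest neighbour runs, and the 5 highest present in one line and near 0 in the other. These genes were named after their values were seen: ABCC2, ABCC3, CBR1, FOXA2, FTL, GATA6, GBP1, GCLC, GCLM, HMOX1, HOXA3, ME1, NQO1, PGD, PLAU, PLAUR, S100A6, SLC7A11, TALDO1, TKT, TP63, TXNRD1, XAF1, the surfactant genes and RPS18. Short RNA rows and 22 tested rows with date-like symbols are not named, and some other genes are not reported here. Gene order and promoters are RefSeq's on GRCh38.p14, whose build differs from that of the files, so no coordinate was joined to the table. The fit was tested on simulated data. Alternatives were other pseudocounts, filters, scalings and fits, a replicate block, and leaving out each library.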

Additional observations from a re-analysis of the deposited data

Results flagged for a closer look

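Among genes at least 2-fold different between the lines in CTRL cells, 3 differed at least 2-fold in the opposite direction in YAP1 KO cells under DMSO; the change of the line difference was tested with limma over 12 libraries. CGB5, a chorionic gonadotropin subunit with near-identical copies, had a log2 difference of 1.44 in CTRL cells and -1.23 in YAP1 KO cells, a change of -2.67 (adjusted p = 4.8e-08). LRRN1, a leucine-rich repeat membrane protein, went from 1.12 to -1.11, a change of -2.23 (adjusted p = 4.2e-08). MINOS1-NBL1, a readthrough row that overlaps its component genes, went from -1.14 to 1.44, a change of 2.59 (adjusted p = 0.0018). The cause was not tested.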

How the results depend on the processing

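A filter on a mean FPKM of 5 over the 6 libraries tested 8325 rows and called 3571 rows lower, 897 at least 2-fold higher and 950 at least 2-fold lower in HCC4006. Under every other alternative run (pseudocounts of 0.1 and 0.01, no filter, FPKM of 5 in 3 libraries, 3 scalings, all 24 libraries, limma without trend, and each library left out) all 4 counts were within 1.5 times those reported, as were the counts of at least 2-fold under limma treat, 1143 and 1216. Which direction held more calls depended on the scaling. Under median-of-ratios scaling 5493 rows were higher and 5210 lower in HCC4006, and with equal column totals 4619 and 5979. The count found again in YAP1 KO cells, 2493 of 3182, was 2477 of 3169 under median-of-ratios scaling. Same-numbered libraries of the lines deviated together with correlations of 0.064, 0.046 and 0.122, and differently numbered ones with correlations from -0.087 to 0.021. The labels do not say whether a number marks a shared batch. With the replicate block the counts were 5038, 5616, 1516 and 1670. Of 188 genes named, which do not include TP63, none reversed, and ABCC3, AXL, EPCAM, ERBB2 and MKI67 crossed the threshold in some alternative. Depth is unknown, so low rows carry no counting error here.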

Other observations

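The other 6 genes called in opposite directions in CTRL and YAP1 KO cells were all higher in HCC4006 in CTRL cells and lower, by less than 2-fold, in YAP1 KO cells. They included ANKRD1, the YAP target given above, CST4, a cystatin, PKIA, an inhibitor of protein kinase A, SH3GL3, an endophilin, and TWIST2, a mesenchymal factor. TWIST2 had means of 6.86 FPKM in HCC4006 and 2.40 in PC9 as CTRL cells and 6.13 and 8.38 as YAP1 KO cells, a change of the line difference of -1.59 (limma, adjusted p = 5.8e-05), so its difference reversed mainly through the PC9 level.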
